A study of Mus musculus with 67 samples.

Results

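The 10 genes described here form the core of the mammalian circadian clock and its best known output: Arntl (also called Bmal1), Clock, Per1, Per2, Per3, Cry1, Cry2, Nr1d1, Nr1d2 and Dbp. They were found by matching gene symbols to the Ensembl identifiers of the deposited expression tables, and all 10 were present among the 16930 genes listed for retina and the 16714 genes listed for RPE, the retinal pigment epithelium. RNA was sequenced from photosensitive Abca4-/- Rdh8-/- mice on the C57BL/6J background, in which 2 genes of retinoid handling are deleted. Every group carried that genotype, so no effect of the genotype itself can be read from these libraries. Libraries are labelled NB, 6h, 1d or 3d: retina had 6, 3, 4 and 4 of them in that order, and RPE had 5, 3, 4 and 4. Each sample pooled the eyes of a single mouse, per the labels' protocols, the lens and cornea were cut away, and RPE cells were freed from the eyecup by shaking. The labels spell out neither NB nor the event from which the times count, and they give no hour of the day, age or sex. Clock transcripts cycle over the day, so time since that event and hour of sampling cannot be told apart in any comparison below. The labels do not say which retina and RPE samples came from the same mouse.

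In the clock loop, the proteins ARNTL and CLOCK bind E-box sequences as a pair and switch on the Per and Cry genes, Nr1d1, Nr1d2 and Dbp. PER and CRY proteins accumulate and repress that pair, while NR1D1 and NR1D2 (also called REV-ERB alpha and beta) repress Arntl and, in part, Cry1 through ROR elements. DBP is a PAR bZIP transcription factor that activates genes carrying D-box sequences, among them Per genes. Arntl transcripts therefore peak at a different time of day from those of Dbp and Nr1d1. The mouse retina keeps a clock of its own, known for its part in dopamine signalling, in visual sensitivity and in the daily uptake of rod outer segments by the RPE.

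The promoters of 4 members are printed because they carry the loop's own motifs and belong to genes that changed in retina at 6h. Each runs from 250 bases before to 50 bases after an annotated start, 5′ to 3′ on the gene's strand, from RefSeq on build GRCm38.p6, with matches in capitals. The Arntl window (chr7:113207261-113207560, plus strand) holds the core of a ROR element. The Cry1 window (chr10:85185005-85185304, minus strand) holds an E-box and, before it, an E'-box. The Nr1d1 window (chr11:98775328-98775627, minus strand) holds an E'-box, and the Per3 window (chr4:151044616-151044915, minus strand) holds a pair of D-boxes.
Arntl: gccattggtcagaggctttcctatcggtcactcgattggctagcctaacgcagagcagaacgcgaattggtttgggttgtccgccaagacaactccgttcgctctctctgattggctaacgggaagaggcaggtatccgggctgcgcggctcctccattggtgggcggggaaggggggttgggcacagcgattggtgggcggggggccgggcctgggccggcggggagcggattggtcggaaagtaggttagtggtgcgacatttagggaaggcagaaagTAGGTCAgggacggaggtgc
Cry1: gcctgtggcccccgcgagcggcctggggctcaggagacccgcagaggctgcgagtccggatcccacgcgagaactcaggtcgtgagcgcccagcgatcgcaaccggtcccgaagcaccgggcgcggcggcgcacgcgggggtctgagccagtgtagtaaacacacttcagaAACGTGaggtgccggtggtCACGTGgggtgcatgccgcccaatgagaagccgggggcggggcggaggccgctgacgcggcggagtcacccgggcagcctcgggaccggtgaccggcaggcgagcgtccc
Nr1d1: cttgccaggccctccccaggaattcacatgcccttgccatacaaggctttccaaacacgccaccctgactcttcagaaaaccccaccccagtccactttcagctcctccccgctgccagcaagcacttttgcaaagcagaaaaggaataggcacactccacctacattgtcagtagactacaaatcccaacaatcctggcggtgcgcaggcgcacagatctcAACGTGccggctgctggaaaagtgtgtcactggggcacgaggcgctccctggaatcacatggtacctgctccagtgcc
Per3: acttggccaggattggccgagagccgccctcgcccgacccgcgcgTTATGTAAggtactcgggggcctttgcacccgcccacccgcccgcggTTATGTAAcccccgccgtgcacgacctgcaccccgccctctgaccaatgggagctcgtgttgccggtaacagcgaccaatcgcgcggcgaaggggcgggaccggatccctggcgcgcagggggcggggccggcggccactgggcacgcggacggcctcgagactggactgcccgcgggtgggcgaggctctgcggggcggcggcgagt
The search took CACGTG as the E-box, CACGTT as the E'-box, TTATGTAA or TTACGTAA as the D-box and TAGGTCA or TGGGTCA as the ROR element core, on both strands. No letters were shared between motif matches in the printed windows. The table held 13 windows of 9 members. Among all 32851 promoter windows of the same length, 7.15% held the E-box, 4.68% the E'-box, 1.06% the D-box and 6.45% the ROR element core. The Per1 window that starts at 69098699 on chromosome 11 also held the E-box and the Cry2 window the E'-box. Neither Dbp, Clock nor Nr1d2 held any of these letters in their windows. A match is a run of letters and not a bound site.

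Levels are CPM, read counts scaled to a common library size, from the effective library sizes that the authors used. Libraries differed in the number of reads recovered, with a gap between deeper and shallower ones. NB libraries are lettered A (deeper) or B (shallower) after the form of their column names. In retina 5 deeper libraries (all 6h, and NB libraries A1 and A2) held 22.6 to 32.4 M reads and 12 shallower ones (NB B1 to B4, all 1d and all 3d) held 9.45 to 15.2 M. In RPE 4 deeper libraries (all 6h, and NB A1) held 23.1 to 26.8 M reads and 12 shallower ones 11.5 to 14.4 M. Each member was covered by 365 to 9223 reads in a retina library and by 103 to 6681 reads in an RPE library. The 1d to 6h comparisons therefore run across the depth sets. Some values against NB are also given below with NB limited to libraries of like depth. Where no such value is given, it may still differ in size or sign. Abca4 averaged 797 ± 96.3 CPM in retina NB (SD, n = 6), and such a read count over the whole gene checks nothing about its deletion.

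The RPE libraries held much RNA of other cells. The RPE marker Rpe65 ranged over 293 to 3763 CPM, while Krt5, a keratin of surface epithelium, ranged over 4447 to 19626 CPM. The summed level of 10 surface epithelium markers (listed after Krt5 had been seen) was 18155 to 51721 CPM in NB, 25342 to 39775 at 6h, 30973 to 62644 at 1d and 13535 to 35848 at 3d, against 9084 to 28941 CPM for 12 RPE markers across all RPE libraries. In retina the same surface epithelium markers summed to at most 22.2 CPM. Clock values called RPE below are those of these mixed libraries. In bulk tissue, fewer cells of a type and less RNA per cell cannot be told apart.

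Arntl, the activator of the loop, had the largest change of the 10 members in retina at 6h. Its level was 122, 116, 115, 111, 118 and 114 CPM in the 6 NB retinas (A1, A2, then B1 to B4), 192, 186 and 179.8 at 6h, 78.1, 88.7, 102 and 91.0 at 1d, and 90.4, 91.7, 89.7 and 88.7 at 3d. The 6h libraries stood above every NB library, and the 1d and 3d libraries stood below every one. The log2 fold change was 0.68 ± 0.06 (SE) at 6h against NB (limma, adjusted p = 3.78e-08), -0.37 ± 0.05 at 1d (adjusted p = 8.87e-06) and -0.36 ± 0.05 at 3d (adjusted p = 2.48e-05). On the linear scale Arntl averaged 186 ± 5.90 CPM at 6h (SD, n = 3), against 116 ± 3.63 in NB (n = 6), a 1.60-fold higher level.

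Clock, the partner of Arntl, did not follow it at 6h. Clock averaged 188 ± 10.8 CPM in NB, 194 ± 8.93 at 6h, 154 ± 5.40 at 1d and 162 ± 9.67 at 3d (SD). Its NB mean was 199.9 CPM in the 2 deeper libraries and 182 CPM in the 4 shallower ones. The 6h mean thus lay above that of all NB libraries and below that of the deeper ones. The 6h libraries overlapped NB (log2 0.05 ± 0.05, adjusted p = 0.515), and Clock fell at 1d (log2 -0.28 ± 0.05, adjusted p = 8.55e-05) and at 3d (-0.21 ± 0.05, adjusted p = 0.00158), with no overlap between the groups.

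Of the repressors, Cry1 moved as Arntl did in direction. It lay at 51.9 to 64.2 CPM in NB (median 58.1), at 86.7, 79.5 and 73.7 at 6h, at 51.3, 50.7, 46.8 and 48.7 at 1d, and at 45.5, 48.0, 46.3 and 47.3 at 3d. All 6h retinas were above and all 1d and 3d retinas below the NB range. Cry1 rose at 6h by 0.47 ± 0.06 on the log2 scale (adjusted p = 7.76e-06) and fell at 1d (-0.22 ± 0.06, adjusted p = 0.00238) and 3d (-0.30 ± 0.06, adjusted p = 2.59e-04). Cry2, the other cryptochrome, averaged 150.4 ± 6.00 CPM in NB, 144 ± 1.98 at 6h, 163 ± 6.45 at 1d and 173 ± 5.25 at 3d. Its 6h level did not pass the test (log2 -0.07 ± 0.04, adjusted p = 0.250), while it rose at 1d (0.12 ± 0.04, adjusted p = 0.0148) and 3d (0.20 ± 0.04, adjusted p = 3.22e-04). The rise of Cry2 at 1d was not past the threshold without 1d replicate 1 (log2 0.10, adjusted p = 0.0637).

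The Per genes, the other arm of the repressor complex, did not move together. Per3 lay at 175 to 209.6 CPM in NB (median 185), at 162, 169 and 159 at 6h, at 149, 147, 147 and 135 at 1d, and at 159, 176, 157 and 165 at 3d. It fell at each time (log2 -0.20 ± 0.05, -0.38 ± 0.05 and -0.20 ± 0.05, adjusted p = 0.00628, 2.44e-06 and 0.00320), and the 3d libraries reached into the NB range. Per1, which light and glucocorticoids induce in other tissues, varied between replicates by SDs of 11.2% to 19.1% of the mean. It averaged 96.6 ± 17.1 CPM in NB, 120.0 ± 13.4 at 6h, 105 ± 20.0 at 1d and 82.4 ± 15.1 at 3d, and none of the 3 comparisons with NB passed (adjusted p = 0.0891, 0.504 and 0.174). In NB, 1d and 3d the highest Per1 level was that of the library numbered 4 (B4 in NB). With the number within a depth set as a replicate block, Per1 was called lower at 3d against NB (limma, log2 -0.24, adjusted p = 0.02002).

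Per2 depended on which NB libraries it was set against. The 2 deeper NB retinas both read 52.7 CPM and the 4 shallower ones 35.2 to 42.6 CPM, with no overlap. Against all NB libraries the 6h retinas, at 43.6, 41.8 and 43.3 CPM, did not differ past the threshold (log2 0.01 ± 0.11, adjusted p = 0.971). Against the 2 NB libraries of their own set they were lower (log2 -0.29 ± 0.05, adjusted p = 0.00363). At 3d Per2 was called lower against all NB libraries (35.1 ± 3.63 CPM at 3d, 43.3 ± 7.69 CPM in NB, log2 -0.28 ± 0.10, adjusted p = 0.0249) but not against the 4 NB libraries of its set (log2 -0.13 ± 0.08, adjusted p = 0.183). That call was also lost without NB A1, NB A2 or 3d replicate 1 (adjusted p = 0.0571, 0.0571 and 0.111).

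Nr1d1 and Nr1d2 code for the nuclear receptors that repress Arntl, and they differed from each other. Nr1d1 read 199.7, 188, 198, 217, 197 and 214 CPM in NB, 279, 286 and 274 at 6h, 266, 227, 272 and 243 at 1d, and 242, 242, 237 and 229.9 at 3d. Every library of the 3 later groups stood above every NB library. The log2 fold changes against NB were 0.47 ± 0.05 at 6h, 0.31 ± 0.05 at 1d and 0.23 ± 0.05 at 3d (adjusted p = 2.14e-06, 3.13e-05 and 9.04e-04). Nr1d2 averaged 277 ± 18.5 CPM in NB, 296 ± 12.3 at 6h, 243 ± 11.5 at 1d and 237 ± 9.44 at 3d. It did not pass at 6h (log2 0.10 ± 0.06, adjusted p = 0.181) and fell at 1d (-0.19 ± 0.05, adjusted p = 0.00451) and 3d (-0.22 ± 0.05, adjusted p = 0.00144), with both groups overlapping NB at their upper end.

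Dbp, the output gene, changed in the direction opposite to Arntl in each comparison with NB. It read 135, 135, 162, 160.2, 150.5 and 154 CPM in NB, 99.6, 110.4 and 112 at 6h, 196, 191, 167 and 175 at 1d, and 178, 182, 183 and 179 at 3d. The 6h libraries stood below every NB library and the 1d and 3d libraries above every one. The log2 fold change was -0.47 ± 0.06 at 6h (adjusted p = 1.30e-05), 0.29 ± 0.06 at 1d (adjusted p = 3.94e-04) and 0.28 ± 0.06 at 3d (adjusted p = 8.12e-04). Here too the depth sets of NB differed, with 135 CPM in both deeper libraries and 150.5 to 162 CPM in the shallower 4, and within the set the 6h change was -0.33 ± 0.06 (adjusted p = 0.00524).

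**Figure D1:**
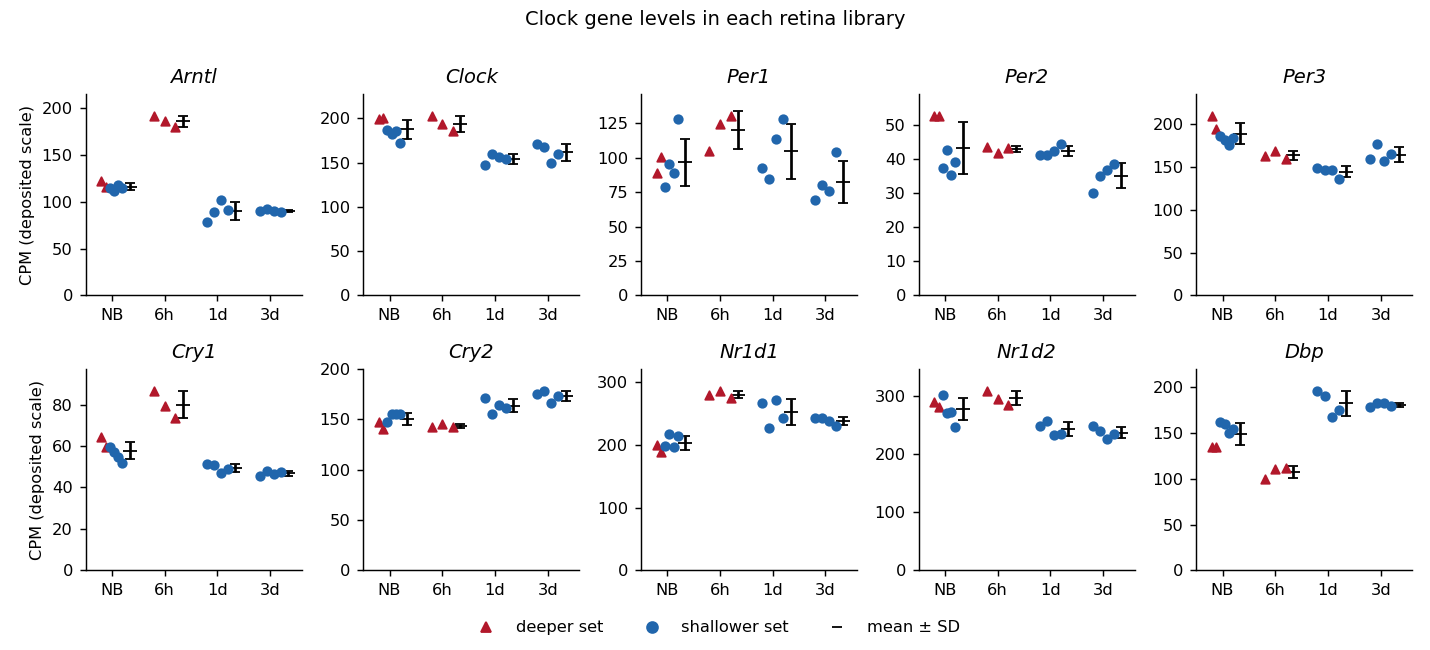
Level of each clock gene in every retina library (y axis, CPM, starting at 0) by group (x axis, NB to 3d). Red triangles are libraries of the deeper set, blue circles of the shallower set, and the black bars are mean ± SD (n = 6, 3, 4 and 4). Arntl and Cry1 stand above NB at 6h and below it at 1d and 3d, Dbp does the opposite, and Per2 splits the NB libraries by depth set.

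By count, 5 of 10 members passed in retina at 6h against NB, 3 higher (Arntl, Cry1, Nr1d1) and 2 lower (Per3, Dbp). In that comparison 35.4% of all genes tested passed, 16.9% as higher and 18.5% as lower. At 1d 8 members passed, 3 higher (Cry2, Nr1d1, Dbp) and 5 lower (Arntl, Clock, Cry1, Per3, Nr1d2), where 51.5% of all genes passed (24.0% higher, 27.5% lower). At 3d 9 members passed, the same 3 higher and 6 lower, Per2 having joined the lower ones, where 43.2% of all genes passed (19.3% higher, 23.9% lower). The median log2 change of the members was 0.07 at 6h, -0.10 at 1d and -0.22 at 3d, against 0.00, -0.01 and -0.02 for all genes. So many retinal genes changed that the number of members called says little by itself.

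Against the NB libraries of the same depth set, 7 members passed at 6h (32.2% of all genes), Per1 being called higher (log2 0.34 ± 0.10, adjusted p = 0.0366) and Per2 lower in addition to the 5 above. At 1d 7 members passed within the set (43.9% of all genes) and at 3d 8 (35.2% of all genes), Cry2 being lost at 1d (adjusted p = 0.112) and Per2 at 3d. Scaling to library totals in place of the authors' effective sizes raised the median log2 change of all genes to 0.15 at 1d and 0.12 at 3d. All genes called then split into 7062 higher and 2448 lower at 1d (4057 and 4662 on the authors' scale) and into 6005 and 1799 at 3d (3265 and 4051). On that scale Cry2, Nr1d1 and Dbp were still called higher and Arntl lower at both times. Clock and Nr1d2 were not called at either time, and Cry1 (log2 -0.05, adjusted p = 0.442) not at 1d. Per3 (log2 -0.04, adjusted p = 0.478) and Per2 (log2 -0.13, adjusted p = 0.263) were not called at 3d. The 5 calls at 6h stood under both scalings.

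Rod transcripts changed in the same retinas. The 12 rod markers summed to 64650 to 72399 CPM in NB, 38343 to 46686 at 6h, 20296 to 35101 at 1d and 34117 to 39552 at 3d, with 10, 12 and 11 of them called lower at the 3 times and 0 called higher. Microglia and macrophage markers summed to 30.6 to 46.4 CPM in NB, 39.4 to 45.6 at 6h, 45.3 to 54.6 at 1d and 131 to 152 at 3d, with 1, 6 and 8 of 9 tested called higher and 2, 2 and 0 lower. RPE markers summed to 1112 to 1431 CPM in retina at 6h, against 819.9 to 956 CPM in NB (7 of 11 tested higher, 0 lower). Cone markers summed to 585 to 817 CPM at 1d, against 1369.7 to 1433 CPM in NB (1 of 8 higher, 7 lower). Endothelium and choroid stroma markers summed to 536 to 595 CPM at 1d and 579 to 649.8 CPM at 3d, against 310.2 to 345 CPM in NB (6 and 7 of 9 tested higher, 0 lower). Müller glia markers summed to 5487 to 6319 CPM in NB and to 5131 to 6067 CPM at 6h (3 of 10 higher, 2 lower). They summed to 4403 to 5259 CPM at 1d (4 higher, 3 lower) and 7235 to 7879.5 CPM at 3d (7 higher, 0 lower). The part of these cell types in the clock values was not tested.

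The retina at 1d differed from that at 6h in 8 members, 2 higher and 6 lower, against 35.0% of all genes (17.5% higher, 17.5% lower). Arntl fell by 1.05 on the log2 scale (SE 0.06, adjusted p = 3.55e-10), to 90.0 ± 9.86 CPM at 1d, against 186 ± 5.90 CPM at 6h. Cry1 fell by 0.69 (SE 0.07, adjusted p = 1.33e-07) and Dbp rose by 0.76 (SE 0.07, adjusted p = 7.75e-08). Clock (log2 -0.33), Nr1d2 (-0.28) and Per3 (-0.18) fell and Cry2 (0.18) rose, while Nr1d1 was called lower at the edge of the threshold (log2 -0.15, adjusted p = 0.0498). Nr1d1 was not called without 1d replicate 2 or 4 or any of the 3 libraries at 6h (adjusted p = 0.0735 to 0.163), nor Per3 without 1d replicate 4 or 6h replicate 1 or 2 (adjusted p = 0.0518 to 0.0940). Per3, Nr1d1 and Nr1d2 also lost their calls on library totals, where the median of all genes was 0.13 and 5605 genes were called higher and 1836 lower (2963 and 2969 on the authors' scale).

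Between 3d and 1d only Per3 passed, higher at 3d (164 ± 8.65 CPM at 3d, 144 ± 6.21 CPM at 1d, log2 0.19 ± 0.05, adjusted p = 0.0178), where 21.4% of all genes passed (9.79% higher, 11.6% lower). That call was lost without 1d replicate 4 or 3d replicate 2 (adjusted p = 0.0711 and 0.0707). Arntl, at 90.1 ± 1.28 CPM at 3d and 90.0 ± 9.86 CPM at 1d, and Dbp, at 181 ± 2.44 and 182 ± 13.5 CPM, differed by 0.01 and -0.01 on the log2 scale with SEs of 0.06 each. Replicates of the 3d retina were close, with SDs of 1.42% of the mean for Arntl and 1.35% for Dbp.

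The ratio of Dbp to Arntl within 1 library does not depend on the scaling of that library. In retina it was 1.11 to 1.44 in NB, 0.520 to 0.623 at 6h, 1.64 to 2.51 at 1d and 1.97 to 2.04 at 3d. The groups at 6h, 1d and 3d each lay clear of NB, with 6h below and the later times above. In RPE, where Arntl was low, the ratio was 11.4 to 36.6 in NB, 4.83 to 11.7 at 6h, 6.31 to 22.5 at 1d and 6.38 to 13.2 at 3d, and all 3 later groups overlapped NB. The ratio is in CPM and not per length, so its size does not compare the molecules of both genes.

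**Figure D2:**
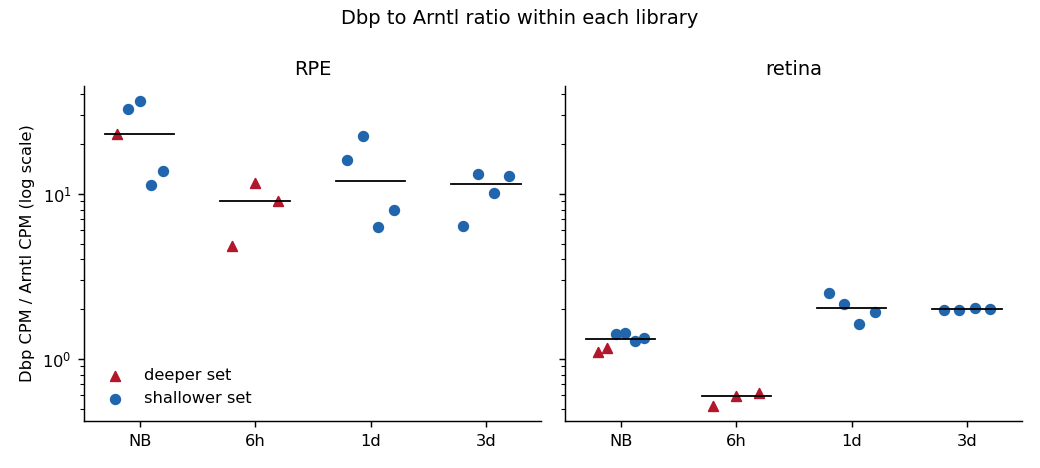
Dbp CPM divided by Arntl CPM in each library (y axis, log scale) by group (x axis), for RPE on the left and retina on the right. Points are libraries (triangles deeper set, circles shallower set) and lines are group medians. The 3 retinas at 6h lie between 0.520 and 0.623, below all NB retinas, and those at 1d and 3d lie above all NB retinas.

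A pair of members share annotated bases with another protein coding gene that was well covered, and the labels do not say whether counting used strand, so reads in those stretches cannot be told apart. Nr1d1 (chromosome 11, 98767932 to 98775377) overlaps Thra, a thyroid hormone receptor gene, over 1075 bases, 14.4% of its span. Retinal Thra averaged 238 ± 11.7 CPM in NB, 249 ± 3.80 at 6h, 241 ± 8.12 at 1d and 271 ± 4.19 at 3d, and passed at 3d alone (log2 0.19 ± 0.04, adjusted p = 8.27e-04). Dbp (chromosome 7, 45705100 to 45710203) overlaps Sphk2, a sphingosine kinase gene, over 741 bases, 14.5% of its span. Retinal Sphk2 averaged 17.8 ± 2.72, 17.5 ± 0.976, 21.0 ± 3.59 and 18.8 ± 1.4 CPM in NB, 6h, 1d and 3d, and no comparison with NB passed. Per3 overlaps Uts2 over 9.88% of its span, and Per2, Cry2, Arntl and Clock overlap noncoding genes or a pseudogene.

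Among 12 further genes of the clock loop, 4 were higher, 3 lower and 5 not past in retina at 6h against NB. At 1d 2 were higher, 3 lower and 7 not past, and at 3d 4 were higher, 4 lower and 4 not past. Their medians were 0.01, -0.03 and 0.06 on the log2 scale, next to the medians of all genes given above. Of all genes tested in retina, 16.9% were called higher and 18.5% lower at 6h, 24.0% and 27.5% at 1d, and 19.3% and 23.9% at 3d, and the counts of this list and of the regulators, outputs and glucocorticoid response genes stand beside those shares. Ciart, which codes for a repressor of the ARNTL and CLOCK pair, averaged 22.8 ± 2.43 CPM in NB, 12.4 ± 2.75 at 6h, 21.6 ± 1.53 at 1d and 25.1 ± 3.04 at 3d. It fell at 6h (log2 -0.87 ± 0.12, adjusted p = 1.51e-05), with all 3 libraries (9.22 to 14.1 CPM) below NB (19.2 to 25.6 CPM), and did not pass later. Bhlhe40 (also called Dec1), another E-box repressor, averaged 81.6 ± 8.03, 101 ± 3.58, 142 ± 11.5 and 109 ± 3.73 CPM in NB, 6h, 1d and 3d and rose at each time, by most at 1d (log2 0.80 ± 0.07, adjusted p = 6.29e-09).

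Rora and Rorb code for the receptors that activate through the same elements as NR1D1 represses. Rorb averaged 409 ± 37.8 CPM in NB, 264 ± 15.3 at 6h, 201 ± 33.7 at 1d and 224 ± 11.5 at 3d and fell at each time (log2 -0.62, -1.03 and -0.86, adjusted p = 3.74e-05, 7.05e-09 and 3.32e-07). Rorb is also a gene of photoreceptor development, and it fell beside the rod markers. Rora fell at 1d (log2 -0.41 ± 0.06, adjusted p = 1.04e-05) and 3d (-0.37 ± 0.06, adjusted p = 6.53e-05) and did not pass at 6h (0.17 ± 0.06, adjusted p = 0.0525).

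Regulators of clock proteins, 15 kinase, ubiquitin ligase and related genes, counted 6 higher, 2 lower and 7 not past at 6h in retina, 4, 4 and 7 at 1d, and 3, 5 and 7 at 3d. Fbxw11 and Btrc, both ubiquitin ligase adaptors that mark PER proteins for decay, went opposite ways at 1d (log2 0.34 ± 0.03 and -0.41 ± 0.05, adjusted p = 6.08e-08 and 1.33e-06). Csnk1e, a kinase gene of PER proteins, rose (0.27 ± 0.04, adjusted p = 1.37e-05), as did Timeless (0.54 ± 0.08, adjusted p = 1.79e-05).

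Of 11 outputs of the retinal clock and genes of photic input, 2 were higher and 1 lower at 6h, 6 and 1 at 1d, and 1 and 3 at 3d. Drd4, the dopamine receptor gene of photoreceptors whose transcript cycles over the day, averaged 176 ± 28.1 CPM in NB, 75.8 ± 8.27 at 6h, 77.9 ± 17.5 at 1d and 97.7 ± 11.7 at 3d, with its smallest adjusted p at 1d (log2 -1.18 ± 0.13, adjusted p = 2.74e-07). Adcy1, a cyclase gene that also cycles in photoreceptors, averaged 522 ± 30.6, 813 ± 47.4, 535 ± 73.9 and 429 ± 29.8 CPM, and rose at 6h (log2 0.64 ± 0.08, adjusted p = 4.14e-06). Crem, of cAMP signalling, rose at 1d (0.43 ± 0.06, adjusted p = 1.73e-05), and Noct rose at 6h (0.36 ± 0.08, adjusted p = 0.00122).

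Glucocorticoid response genes counted 5 higher, 0 lower and 4 not past of 9 tested in retina at 6h, and 0 higher, 4 lower and 5 not past at both 1d and 3d. Sgk1, a kinase gene induced by these hormones, averaged 377 ± 20.5 CPM in NB, 547 ± 35.6 at 6h, 226 ± 45.6 at 1d and 243 ± 23.9 at 3d (1d against NB, log2 -0.76 ± 0.10, adjusted p = 1.98e-06). Errfi1, a feedback inhibitor of growth factor receptors, rose at 6h (0.56 ± 0.06, adjusted p = 1.01e-06). The receptor gene Nr3c1 fell at 1d (-0.34 ± 0.05, adjusted p = 9.77e-06), and so did Ddit4 (-0.58 ± 0.11, adjusted p = 1.87e-04).

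In RPE the members were spread more widely, with SDs of 2.36% to 48.1% of the mean against 1.35% to 19.1% in retina. At 6h against NB Cry1 alone passed, where 1.46% of all genes passed. Cry1 read 19.9, 13.7, 12.2, 10.2 and 11.7 CPM in NB (A1, then B1 to B4) and 24.8, 20.7 and 20.8 CPM at 6h. The 6h libraries were above every NB library, but NB A1, the single one of their depth set, stood just below them. The log2 fold change was 0.72 ± 0.17 (adjusted p = 0.0420) over all NB libraries and 0.14 ± 0.17 (adjusted p = 0.665) against NB A1. The call was lost without any one of the 3 libraries at 6h (adjusted p = 0.0538 to 0.291) or without any one of NB B1 to B4 (adjusted p = 0.0650 to 0.113), and on library totals (adjusted p = 0.0616) or in a fit of both groups alone (adjusted p = 0.0805).

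Arntl in RPE was low, at 11.8, 9.62, 8.08, 15.3 and 14.9 CPM in NB, 24.0, 16.5 and 20.9 at 6h, 15.9, 11.7, 16.7 and 20.4 at 1d, and 25.8, 20.0, 17.6 and 16.8 at 3d. The 6h and 3d libraries stood above every NB library and those at 1d overlapped it. None of the 3 passed (6h log2 0.78 ± 0.22, adjusted p = 0.0847; 1d 0.43 ± 0.20, adjusted p = 0.227; 3d 0.74 ± 0.20, adjusted p = 0.250). Arntl at 6h passed by DESeq2 (adjusted p = 0.0230), and against NB A1 alone its log2 change was 0.75 ± 0.23 (adjusted p = 0.181).

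Several members placed RPE NB A1 apart from the other NB libraries. Per2 read 86.9 CPM in A1 and 28.3 to 44.9 in B1 to B4, Per3 156 and 77.4 to 98.7, Nr1d2 207 and 99.5 to 127, and Nr1d1 111 and 173 to 197. At 6h Per2 lay at 47.7 to 54.6, Per3 at 127 to 132, Nr1d2 at 115 to 163 and Nr1d1 at 104 to 130.3 CPM. Without A1, Per3 was called higher (log2 0.55, adjusted p = 0.0169) and Nr1d1 lower (log2 -0.63, adjusted p = 0.0340) at 6h. Against A1 alone, a single library assumed to vary like those at 6h, 0 members passed at 6h (0.245% of all genes), Per2 and Per3 had log2 changes of -0.75 ± 0.13 (adjusted p = 0.0847) and -0.26 ± 0.11 (adjusted p = 0.271), and Nr1d1 0.11 ± 0.17 (adjusted p = 0.729). Nr1d2 had a log2 change of 0.14 against all NB libraries and of -0.56 against A1, so that for these 4 genes the sign of the 6h value in RPE differed between the comparisons.

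At 1d and 3d against NB, 0 members passed in RPE, where 5.61% and 0.18% of all genes passed by limma (0.18% is 30 genes, and 1659 had an unadjusted p under 0.05). By edgeR 960 and 28 genes passed, and by DESeq2 1668 and 139. By limma, unadjusted p was under 0.05 for 4 members at 1d (Per2, Per3, Arntl and Nr1d2), beside 3613 of all 16712 genes. At 3d it was so for 3 members (Per2, Per3 and Arntl), beside the 1659 genes above. Per2 was at 26.0 ± 5.22 CPM at 1d and 26.8 ± 4.47 at 3d, against 47.5 ± 22.8 in NB (log2 -0.77 ± 0.24 and -0.72 ± 0.24, adjusted p = 0.0724 and 0.348), and passed at 1d by DESeq2 (adjusted p = 0.0173), where edgeR called 0 members. That NB mean includes A1, at 86.9 CPM, and the 4 NB libraries of like depth averaged 37.7 CPM. The smallest falls of Per2 over the alternative settings were -0.52 at 1d and -0.48 at 3d. Dbp read 174 to 312 CPM in NB, 116 to 192 at 6h, 105 to 262 at 1d and 165 to 264 at 3d, overlapping in each comparison (log2 -0.60 ± 0.29, -0.42 ± 0.26 and -0.28 ± 0.26, adjusted p = 0.280, 0.378 and 0.724). The remaining members, Clock, Per1, Per3, Cry1, Cry2, Nr1d1 and Nr1d2, had adjusted p-values of 0.134 or more at both times.

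Between 1d and 6h in RPE, Per3 and Cry1 fell, where 3.39% of all genes passed. Per3 read 76.1, 90.8, 62.4 and 70.9 CPM at 1d, against 127, 132 and 132 CPM at 6h (log2 -0.80 ± 0.18, adjusted p = 0.0312). Cry1 read 12.7, 11.7, 11.04 and 12.2 CPM at 1d, against 24.8, 20.7 and 20.8 CPM at 6h (log2 -0.86 ± 0.17, adjusted p = 0.0206). Neither pair of groups overlapped. Per2 (log2 -0.99 ± 0.27, adjusted p = 0.0557) and Nr1d2 (-0.64 ± 0.22, adjusted p = 0.0964) did not pass, though their groups did not overlap either. How many of all genes had groups without overlap was not counted. By limma, 3973 of 16712 genes had an unadjusted p under 0.05 in this comparison. The 1d to 6h values in RPE run across the depth sets. Cry1 lost its call without 6h replicate 1 or 3 (adjusted p = 0.112 and 0.0864), and Per3 without 1d replicate 4 or any of the 3 at 6h (adjusted p = 0.0755 to 0.134). Between 3d and 1d 0 members passed by limma, where 6.58% of all genes did. No member had an unadjusted p under 0.05 there, where 4775 of 16712 genes had one.

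**Figure D3:**
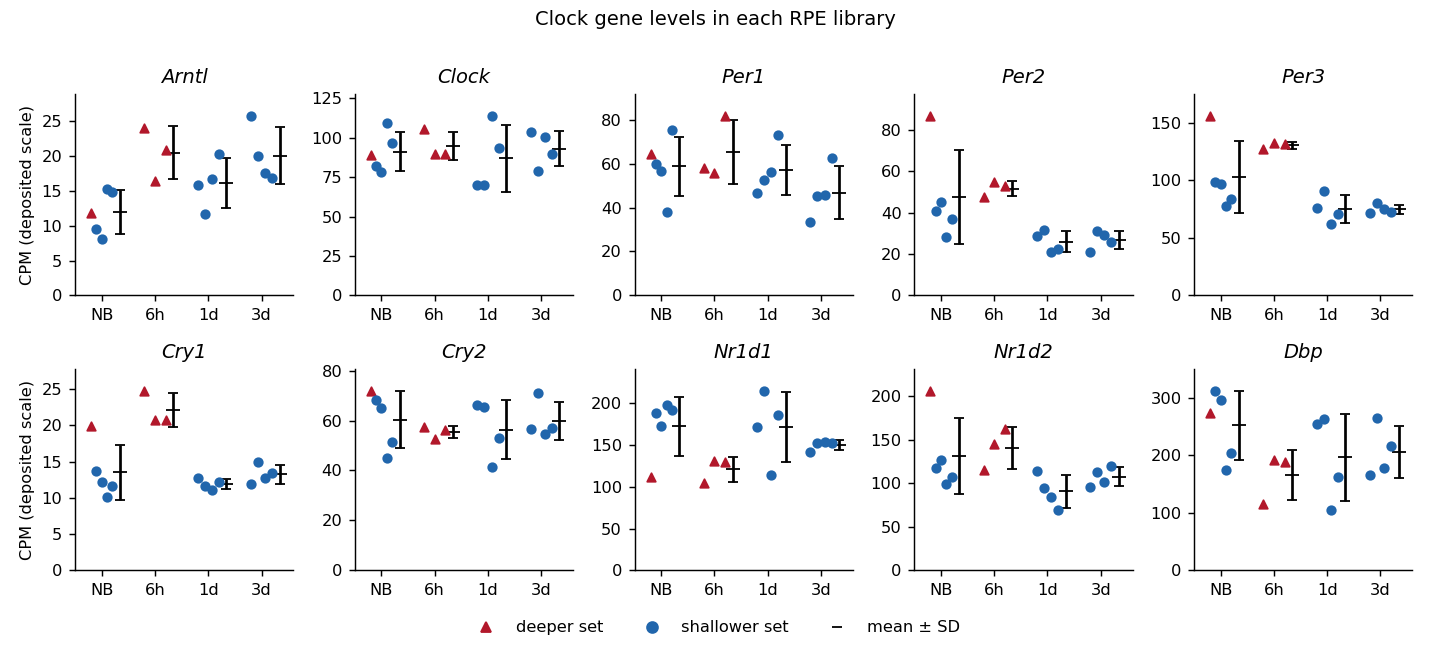
Level of each clock gene in every RPE library (y axis, CPM, starting at 0) by group (x axis, NB to 3d), drawn as for retina (n = 5, 3, 4 and 4). The red NB triangle is the library A1, which reads 86.9 CPM for Per2 and 111 CPM for Nr1d1, apart from the 4 blue NB libraries.

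Rod transcript levels are given beside these RPE values. The summed level of the 12 rod markers was 4113 to 6642 CPM in NB, 5536 to 15197 at 6h, 3253 to 8789 at 1d and 4939 to 8597 at 3d, and 0 of the 12 passed in any comparison with NB (limma, the smallest adjusted p being that of Pde6b at 6h, 0.0910). Over 11 rod markers, the median level in RPE as a percent of the level in retina was 8.07% in NB, 22.9% at 6h, 20.6% at 1d and 16.6% at 3d. Arntl averaged 11.9, 20.5, 16.2 and 20.05 CPM in RPE in NB, 6h, 1d and 3d, where the retinal mean scaled by that median came to 9.36, 42.5, 18.5 and 14.9 CPM. Cry1 averaged 13.5, 22.1, 11.9 and 13.3 CPM in RPE, where the scaled retinal mean came to 4.66, 18.3, 10.2 and 7.75 CPM. For Arntl the RPE level was below the scaled retinal level at 6h and 1d and above it in NB and at 3d, and for Cry1 it was above it in each group. The CPM of each tissue were scaled separately. Other marker sums also differed at 6h, where inner retina neuron markers summed to 536 to 617 CPM, against 418 to 481 CPM in NB (1 of 9 tested higher). Cone markers summed to 123 to 265 CPM at 6h, against 63.7 to 93.6 CPM in NB (1 of 8 higher). RPE markers summed to 9738 to 14053 CPM at 6h and 9084 to 12661 CPM at 1d, against 15176 to 25902 CPM in NB (1 and 4 of 12 lower). The part of RNA from retina in the RPE values was not tested. With the rod sum as a covariate, a setting chosen after the data were seen, the 6h changes were of the same size (Arntl 0.74 ± 0.26, adjusted p = 0.380, and Cry1 0.71 ± 0.20, adjusted p = 0.249), and 0 members passed. With the surface epithelium sum as the covariate, also chosen later, Arntl and Cry1 passed at 6h (log2 0.77 ± 0.21 and 0.72 ± 0.13, adjusted p = 0.0319 and 0.00591) and Per2 at 3d (-0.92 ± 0.16, adjusted p = 0.0205).

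**Figure D4:**
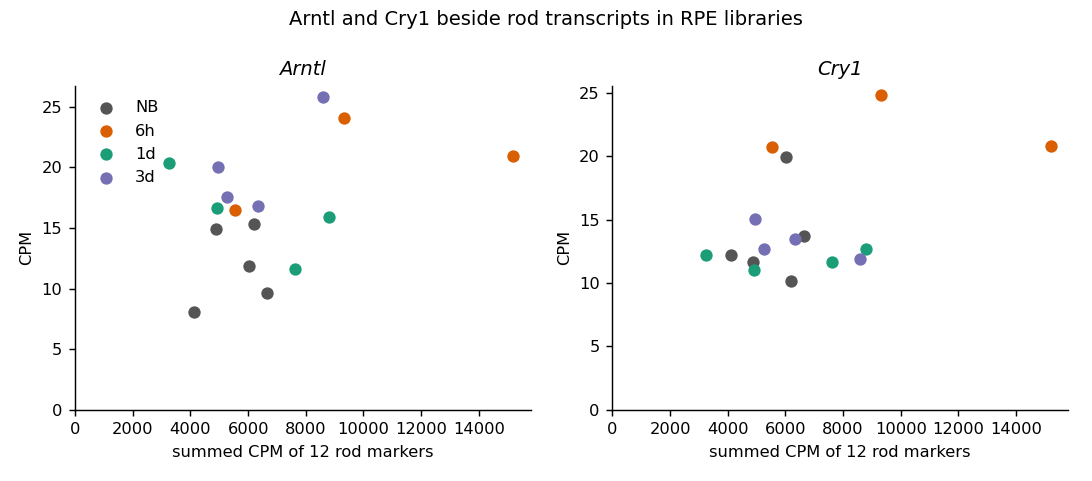
CPM of Arntl (left) and Cry1 (right) in each RPE library (y axes) against the summed CPM of 12 rod markers in the same library (x axes), coloured by group. The 6h library with the largest rod sum, 15197 CPM, has 20.9 CPM of Arntl and 20.8 CPM of Cry1, and the 6h library with 9333 CPM of rod markers has 24.0 and 24.8 CPM.

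Of the 12 further loop genes in RPE, Ciart alone passed against NB, at 6h. It averaged 6.83 ± 2.75 CPM at 6h, against 15.0 ± 2.73 CPM in NB (log2 -1.13 ± 0.25, adjusted p = 0.0384). Of the 15 regulators, 1 was lower at 1d (Prkaa2, an AMP kinase subunit gene, log2 -0.54 ± 0.10, adjusted p = 0.00470) and 0 passed at 6h or 3d. Of 9 tested outputs, Noct rose at 1d (14.9 ± 3.3 CPM at 1d, 9.22 ± 0.997 CPM in NB, log2 0.64 ± 0.16, adjusted p = 0.0285). Of 10 glucocorticoid response genes, Sgk1 and Ddit4 fell at 1d (log2 -0.70 ± 0.17 and -0.49 ± 0.13, adjusted p = 0.0235 and 0.0331).

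Whether the tissues responded differently was tested as the response in RPE minus the response in retina, each against its own NB (15105 genes tested in both). All libraries were taken as independent, so any sharing of a mouse between retina and RPE was not modelled. At 6h 2 members passed, where 17.6% of all genes did. Nr1d1 changed by -0.48 ± 0.19 in RPE and by 0.47 ± 0.05 in retina, a difference of -0.95 ± 0.20 (adjusted p = 0.00163). Per3 changed by 0.39 ± 0.17 in RPE and by -0.20 ± 0.05 in retina, a difference of 0.59 ± 0.18 (adjusted p = 0.0231). Within the deeper set, where RPE has a single NB library, these differences were -0.41 ± 0.16 (adjusted p = 0.126) and 0.04 ± 0.09 (adjusted p = 0.776), and Per2 (-0.45 ± 0.11, adjusted p = 0.0352) and Cry2 (-0.37 ± 0.09, adjusted p = 0.0368) were past the threshold. The arm of RPE in that set has NB A1 as its single NB library, the library that stands apart for Per2, so these 4 values rest on it. The difference of Per3 also lost its call without RPE 6h replicate 3 or retina 6h replicate 1 or 3 (adjusted p = 0.0505 to 0.0593).

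At 1d and 3d the responses of Arntl differed between the tissues. In the same test 12 of 12 rod markers were called higher at 1d (median log2 1.35) and 7 of 12 at 3d (1.03), with 0 lower. The part of rod RNA in the difference of Arntl was not tested. The log2 change of Arntl was 0.43 ± 0.20 at 1d and 0.74 ± 0.20 at 3d in RPE, neither of them past the threshold. In retina it was -0.37 ± 0.05 and -0.36 ± 0.05, both past it. The differences were 0.80 ± 0.21 (adjusted p = 0.00543) at 1d, where 21.7% of all genes passed, and 1.103 ± 0.21 (adjusted p = 8.36e-04) at 3d, where 12.2% did. Within the shallower set they were 0.79 ± 0.24 (adjusted p = 0.0253) and 1.09 ± 0.24 (adjusted p = 0.00564). In that set Cry1 (0.40, limma, adjusted p = 0.0276) and Nr1d1 (-0.53, adjusted p = 0.0373) were also past the threshold at 3d. Over all libraries they were not (adjusted p = 0.219 and 0.153). Per2 was the other member called at 1d (-0.77 ± 0.24 in RPE, -0.02 ± 0.10 in retina, difference -0.75 ± 0.26, adjusted p = 0.0397). That call was lost on leaving out any one of 12 libraries (adjusted p = 0.0513 to 0.0848), and held within the set (-0.66 ± 0.20, adjusted p = 0.0237). Dbp, opposite in sign between the tissues at both times, did not pass (1d difference -0.71 ± 0.27, adjusted p = 0.0628; 3d -0.56 ± 0.27, adjusted p = 0.187).

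**Figure D5:**
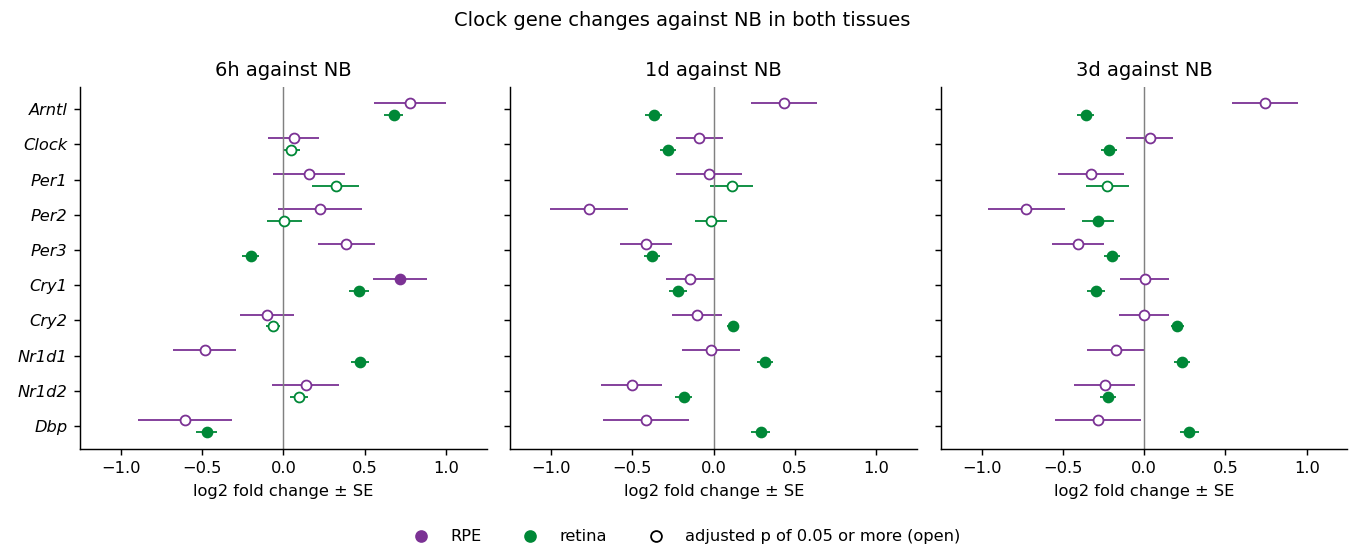
Log2 fold change against NB (x axes, ± SE) of each clock gene (y axis) at 6h, 1d and 3d, for RPE (purple, upper point) and retina (green, lower point). Filled points have an adjusted p under 0.05 and open points do not. In retina 5, 8 and 9 points are filled and in RPE 1, 0 and 0, and the RPE error bars are the wider ones.

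The authors' deposited table gives a log2 fold change and an unadjusted p per gene, adjusted here by Benjamini-Hochberg over its genes. The deposited p-values differ from those of edgeR's quasi-likelihood test against no change on the same reads. In the authors' deposited table retinal Per3 at 1d has a log2 fold change of -0.38 with p = 0.903, where edgeR on the recovered reads gave -0.38 with an adjusted p of 3.36e-06. How they were made is not given in the sources used here, so the counts that follow are not comparable with those of limma. In the authors' deposited table retinal Arntl at 6h (log2 0.68, adjusted p = 0.0102) was the single clock gene that passed in any of the 6 comparisons with NB. In the authors' deposited table of retina 852 genes passed at 6h, 1839 at 1d and 712 at 3d. In the authors' deposited tables of RPE, unadjusted p was under 0.05 for Arntl at 6h (log2 0.78, p = 0.0365) and 3d (0.75, p = 0.0410), Cry1 at 6h (0.70, p = 0.0428) and Per2 at 1d (-0.87, p = 0.0253) and 3d (-0.83, p = 0.0341). After adjustment 0 of these passed. In the authors' deposited tables of RPE 9 of 16714 genes then passed at 6h, 216 at 1d and 13 at 3d. How many of all genes had an unadjusted p under 0.05 in them was not counted.

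The genes most like Dbp and Arntl within groups were found from the correlation of log2 levels after group means were taken away, among genes of at least 5 CPM. In retina (17 libraries, 12473 genes) those nearest to Dbp were Ino80c (r = 0.91), Parp11 (0.91), Ehd4, Cndp2 and Metrn (0.86 each), and those nearest to Arntl were Suv39h2 (0.93), Nadk2 (0.90), Gm11961 (0.89), Pcmtd2 (0.89) and Map4k3 (0.88). In RPE (16 libraries, 12277 genes) they were Cisd1 (0.97), BC002163 (0.95), Cuedc2 (0.94), Ndufb11 (0.93) and Bsg (0.93) for Dbp, and Uba6 (0.84), Aida (0.84), Fam241b (0.81), Wsb1 (0.81) and Zbtb40 (0.79) for Arntl. Dbp and Arntl themselves correlated at -0.69 in retina and -0.65 in RPE. In RPE Dbp correlated at -0.98 with Clock and at 0.84 with Cry2. These values share libraries, depth and tissue content, and they describe the libraries only.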

How the data were processed

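Expression was analysed in 33 RNA-seq libraries, 17 of retina and 16 of RPE, from Abca4-/- Rdh8-/- mice; the ATAC-seq libraries were not analysed here. The authors deposited CPM on effective library sizes, a signal scaled separately for each tissue, with log2 fold changes and unadjusted p-values against NB. Per the submitters' processing notes, the tools included Trimmomatic, STAR and edgeR on build GRCm38, without versions; the read counter is not given in the sources used here. Whole read counts were recovered from the deposited values (100% of values within 0.01 of a whole read).

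Groups were taken from the labels; 11 NB columns matched their group but no single sample. log2(CPM + 0.5) was tested with limma 3.58.1 (R 4.3.3) over all groups of a tissue, with a trended variance and Benjamini-Hochberg adjustment over the 16926 retina and 16712 RPE genes with at least 1 CPM in at least 3 libraries, threshold 0.05. Fold changes on that scale understate the change of low genes. The tissue difference came from 1 fit of both tissues. Tests were checked on simulated data with a fixed spread setting for all genes and no shift between depth sets. That check does not cover the wide spread or the mixed cell content of the RPE libraries. Alternatives were edgeR 4.0.16 and DESeq2 1.42.0 on recovered reads, other scalings, pseudocounts of 0.1 and 2, no filter, other fits, the depth sets and leaving out each library. The members, the gene lists and the tests were chosen with earlier results of these data known. All 10 members are named, with up to 4 genes of each other list by smallest adjusted p. Libraries held 9.449 to 32.35 M reads. Symbols came from a table of gene identifiers, which left 6 retina and 7 RPE identifiers without one, and gene positions and promoters from RefSeq tables of GRCm38.p6. The level of 1 marker gene is not reported here.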

Additional observations from a re-analysis of the deposited data

Results flagged for a closer look

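In 60 groups of 4 or more libraries, 6 held a library far from the others of its group, where chance gives about 1 in 20. Of these, 4 were the RPE library NB A1, the deeper of the NB libraries, which read 86.91 CPM for Per2, 156.1 for Per3, 111.3 for Nr1d1 and 206.7 for Nr1d2. The other 2 were RPE 3d replicate 2 for Cry2 (71.11 CPM) and RPE 3d replicate 1 for Nr1d1 (140.9 CPM). The part of depth or of the hour of sampling in the values of A1 was not tested.

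The response differed between RPE and retina by the test of the difference (limma) in 5 cases, given as log2 in RPE minus log2 in retina. At 6h these were Per3 (0.59, adjusted p = 0.0231) and Nr1d1 (-0.95, adjusted p = 0.00163). At 1d they were Per2 (-0.75, adjusted p = 0.0397) and Arntl (0.80, adjusted p = 0.00543), and at 3d Arntl (1.103, adjusted p = 8.36e-04). Both differences at 6h lost their call within the deeper set, which has A1 as its single RPE library of NB. Those of Arntl at 1d and 3d held within the shallower set, which has 4. Rod markers were called in the direction of Arntl too, 12 of 12 at 1d and 7 of 12 at 3d, with 0 in the other.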

How the results depend on the processing

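Of 233 counts recomputed under other settings, 187 stayed within 1.5 times the reported count. Of 3110 member values, 5 had the other sign with a call on at least 1 side, 75 lost their call and 32 gained one. Where a value moved, the cause was not tested.

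Members called in retina under library totals numbered 5 at 1d, 5 at 3d and 5 for 1d against 6h, and 4 for the tissue difference at 1d. All genes called on that scale numbered 9510, 7804 and 7441 of 16926 in the retina comparisons. For the tissue difference at 1d they numbered 3904 of 15105. In RPE at 6h 0 members passed on library totals, in the groups compared alone, within the depth set or with the rod covariate, and 2 by DESeq2 and with the surface epithelium covariate. In RPE 1 member passed at 1d by DESeq2 and 1 at 3d with the surface epithelium covariate, and 0 for 1d against 6h with the rod covariate. The groups compared alone gave 2 members for retina 3d against 1d, where 2829 of 16926 genes passed. The depth set gave 3 for the tissue difference at 3d (Arntl, Cry1 and Nr1d1), where 2026 of 15105 genes passed.

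Genes called in RPE at 6h, 244 as reported, numbered 1250 by DESeq2, 383 by edgeR, 452 in the groups alone, 147 on library totals, 41 within the depth set, 21 with the rod covariate and 1603 with the surface epithelium covariate. At 1d, 937 became 1668 by DESeq2, 537 in the groups alone and 508 within the set. At 3d, 30 became 139 by DESeq2, 19 in the groups alone, 13 within the set and 78 with the surface epithelium covariate. For 1d against 6h, 567 became 1652 by DESeq2, 299 on library totals, 106 with the rod covariate and 1085 with the surface epithelium covariate. For 3d against 1d, 1100 became 1977 by DESeq2, 527 in the groups alone and 373 with the surface epithelium covariate.

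Same-numbered libraries did not deviate together in every pair (correlations in retina of -0.319 to 0.227 between 1d and 3d, -0.123 to 0.205 between 1d and NB and -0.125 to 0.147 between 3d and NB, and in RPE of -0.0406 to 0.155, -0.0792 to 0.345 and -0.236 to 0.396). The 2 pairs of retina 6h and NB gave 0.482 and 0.617. They were therefore treated as sharing only a number, although Per1 was highest in the library numbered 4 in all 6 groups that have one. At 6h Per1 was highest in replicate 3 in both tissues. With the number within a depth set as a replicate block, members called were 4 for retina 1d against 6h and 3 for retina 3d against 1d. In RPE, 6h replicates 2 and 3 each stood alone in a block. The RPE values at 6h under the block thus set 6h replicate 1 against NB A1 alone, and no counts are given for them. In retina 6h replicate 3 stood alone, so the 6h values rest on 2 pairs. Genes called under the block were 3235 for retina at 6h, 2051 for retina 1d against 6h and 3627 for retina 3d against 1d. In RPE they were 574 at 1d and 16 at 3d. Per2 reversed in retina under the block (-0.30 at 6h and 0.43 for 1d against 6h). It also reversed within the depth set (-0.29 at 6h, and -0.45 for the tissue difference at 6h). Per3 reversed in RPE 1d against 6h under the block (0.046), where the 6h side rests on 6h replicate 1 and NB A1. In retina the block added calls for Per1 at 3d (-0.24 against NB, adjusted p = 0.02002; -0.34 against 1d, adjusted p = 0.00397) and for Per2 at 3d against 1d (-0.27, adjusted p = 0.0103), by limma.

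On leaving out each library in turn, members called ranged over 5 to 6 in retina at 6h, 7 to 8 at 1d, 8 to 10 at 3d, 6 to 8 for 1d against 6h and 0 to 2 for 3d against 1d. In RPE they ranged over 0 to 3 at 6h, 0 to 1 at 1d, 0 to 0 at 3d, 0 to 2 for 1d against 6h and 0 to 0 for 3d against 1d, and for each tissue difference over 1 to 3. Genes called ranged over 4553 to 5985 in retina at 6h, 7742 to 8685 at 1d, 6437 to 7203 at 3d, 4675 to 6197 for 1d against 6h and 2832 to 3789 for 3d against 1d. In RPE they ranged over 9 to 1011 at 6h, 618 to 1426 at 1d, 15 to 35 at 3d, 46 to 724 for 1d against 6h and 363 to 1196 for 3d against 1d. The low RPE levels of Arntl and Cry1 rest on 103 and 128 reads at the least. The part of counting error in their spread was not tested.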
